A study of Mus musculus with 7 samples.

Results

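The cytosolic ribosomal protein genes were examined in the poly(A) RNA of the cervical spinal cord of mice aged 8 weeks. Their members were the protein-coding genes with a GENCODE M21 symbol of the form Rps or Rpl with a number and at most 1 further letter, or Rplp0 to Rplp2, or Rpsa, that reached 1 CPM, a gene's counts per 1000000 counts of the library, in each of the 7 libraries. This rule gave 75 genes, 30 of the small and 45 of the large ribosomal subunit, out of 55487 genes in the count table. It used symbols and a level only, and no difference between genotypes. Another 5 genes had such a symbol but fell under 1 CPM in at least 1 library. These were Rpl10l, Rpl39l and Rpl3l, paralogs known from testis or muscle, and the gene entries for Rpl24 and Rps10.

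The libraries came from 4 NEAT1-KO; hSOD1G93A mice and 3 NEAT1-WT; hSOD1G93A mice, named KO1 to KO4 and WT2 to WT4 below after the sample labels. Both genotypes carried hSOD1G93A, a mutant human SOD1 transgene that models inherited amyotrophic lateral sclerosis, so the comparison concerns the loss of the long non-coding RNA Neat1 in transgenic animals and not the transgene itself. The mice were bred from Neat1 heterozygous parents, and the transgenic line had been kept by crosses to B6/SJL hybrid females, so the animals were not of 1 inbred strain. The labels give neither sex nor litter.

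A ribosome joins a small subunit, which reads the mRNA, to a large subunit, which links amino acids, and most ribosomal proteins are present in 1 copy per subunit. Their mRNAs are among the most abundant and shortest of the cell, and most start with a cytosine followed by a run of pyrimidines, the terminal oligopyrimidine (TOP) element through which Larp1 and mTOR signalling control their translation. Reverse-transcribed copies of these mRNAs are scattered over mammalian genomes as processed pseudogenes, some of them almost identical to the parent, so a short read does not always tell a member from its copies.

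The pyrimidine run is shown for 5 members described below, since it is a sequence feature known of these genes that the symbol rule did not use. RefSeq promoters on GRCm38.p6 could be matched by symbol for 55 of the 75 members, and 22 of them (40.0%) had a run of at least 8 C or T letters, read on the strand of the gene, that reached within 5 bases of the listed start. The same was found in 11.0% of 27025 genes with a promoter entry, in 33.3% of 18 matched translation factors and other TOP mRNAs, and in 12.3% of 65 matched oxidative phosphorylation genes. Each sequence below covers 30 bases around the start, read 5′ to 3′ along the gene, and capitals mark the part of the run inside that window. A run is a match of letters, not proof of a start site.
Rps18, chr17:33955648-33955677, minus strand: gtcacttccgCTCTCTCTTCCacaggaggc
Rplp2, chr7:141447639-141447668, plus strand: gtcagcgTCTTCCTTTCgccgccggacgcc
Rpl7a, chr2:26910795-26910824, plus strand: CCCTCTTCTTTCTTTCTCCagcagccgagc
Rpl35a, chr16:33056470-33056499, plus strand: gggcttgCCTTCCTCTTTCCgccatcttgg
Rpl13a, chr7:45128728-45128757, minus strand: accctgcgacaagaCCTCCTCCTTTCCCag

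Copies of the members were then listed, since a short read may fit a member and its copy. A copy was an annotated gene with a transcript that matched a member's transcript at 90% identity or more, over at least 50% of its own length and at least 150 bases, outside the member's own locus. There were 1203 copies, 1176 of them annotated as pseudogenes. They belonged to 73 of the 75 members, with a median of 11 and at most 99, for Rpl7a. No read was counted for 522 copies, and 60 reached 5 CPM in at least 1 library.

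4 members are shown beside a copy whose count varied between libraries, to let the few bases that tell the pair apart be seen. In each pair, the 60 coding bases of 1 exon of the member that hold the most differences from the copy are printed, with the copy's matching bases under them. Sequences and positions were taken from GENCODE M21 (build GRCm38), 5′ to 3′ along the member's mRNA, and capitals mark the bases that differ.
Rpl26, exon 3 of 4, chr11:68903260-68903319, plus strand: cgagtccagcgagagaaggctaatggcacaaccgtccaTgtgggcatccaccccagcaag
Gm15772, chr5:3236680-3236739, plus strand: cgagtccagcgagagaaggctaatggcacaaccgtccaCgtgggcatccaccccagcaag
Rps18, exon 4 of 5, chr17:33952221-33952280, minus strand: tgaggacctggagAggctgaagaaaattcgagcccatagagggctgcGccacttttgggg
Gm10260, chr13:97760206-97760265, minus strand: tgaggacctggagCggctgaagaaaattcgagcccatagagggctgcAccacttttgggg
Rps27a, exon 5 of 5, chr11:29545947-29546006, minus strand: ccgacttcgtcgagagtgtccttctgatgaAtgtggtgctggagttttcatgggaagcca
Rps27a-ps2, chr9:83410004-83410063, plus strand: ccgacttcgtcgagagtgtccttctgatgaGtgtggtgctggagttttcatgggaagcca
Rplp0, exon 4 of 7, chr5:115561168-115561227, plus strand: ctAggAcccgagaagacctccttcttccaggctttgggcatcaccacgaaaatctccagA
Gm8730, chr8:102865352-102865411, minus strand: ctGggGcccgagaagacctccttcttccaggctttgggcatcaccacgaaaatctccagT

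Over their whole alignments these pairs differed at few positions. Rpl26 and Gm15772 differed at 2 of 438 aligned positions, with a longest identical stretch of 176 bases. Rps27a and Rps27a-ps2 differed at 1 of 467, with 374 identical bases in a row, and Rps18 and Gm10260 at 5 of 545. Rplp0 and Gm8730 were the least alike of the 4 pairs, with 12 of 954 positions differing.

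Total counts were between 19661878 and 26031517 per library. Neat1 was at 4.04 to 5.52 CPM in the Neat1-KO and at 80.5 to 118.3 CPM in the Neat1-WT libraries, so each library matched its label. The cervical markers Hoxa5, Hoxc5, Hoxc6 and Hoxb8 summed to between 334.71 and 434.22 CPM, and those of neurons, motor neurons, oligodendrocytes, astrocytes and microglia were all detected. Xist was at 0.161 CPM or less in all 7 libraries. In bulk tissue, fewer cells of a type and less RNA per cell cannot be told apart.

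No ribosomal protein gene passed the test between the genotypes. All 75 members were tested by edgeR's quasi-likelihood test among 18449 genes, and 0 were called at an adjusted p under 0.1 with an absolute log2 fold change over 0.58, against 0.0325% of all genes tested, which is 6 genes. At an unadjusted p under 0.05, 1 member was lower in Neat1-KO, against 2.4% of all genes, and 0 were higher, against 2.24%. The libraries of the genotypes overlapped for all 75 members, whereas they did not overlap for 5.47% of all genes tested. DESeq2 and limma-voom called no member either, with 0 and 1 members lower, against 2.41% and 2.57% of all genes, and 0 and 2 members higher, against 1.91% and 2.13%, at an unadjusted p under 0.05.

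Most of the differences were small against their errors. On the log2 scale, 67 of the 75 members differed by less than 0.2 between the genotypes, and the standard errors ran from 0.071 to 0.258 with a median of 0.112. Of the members, 49 were higher and 26 lower in Neat1-KO, with a median log2 fold change of 0.031, beside 0.006 over all genes tested. Small subunit genes had a median of 0.040 (19 higher, 11 lower) and large subunit genes a median of 0.031 (30 higher, 15 lower). This balance rested on single libraries. Without KO1 the median was -0.049, with 16 members higher and 59 lower, and without WT4 it was -0.051, with 20 higher and 55 lower. Leaving out any of the other 5 libraries gave medians from 0.056 to 0.101.

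**Figure D1:**
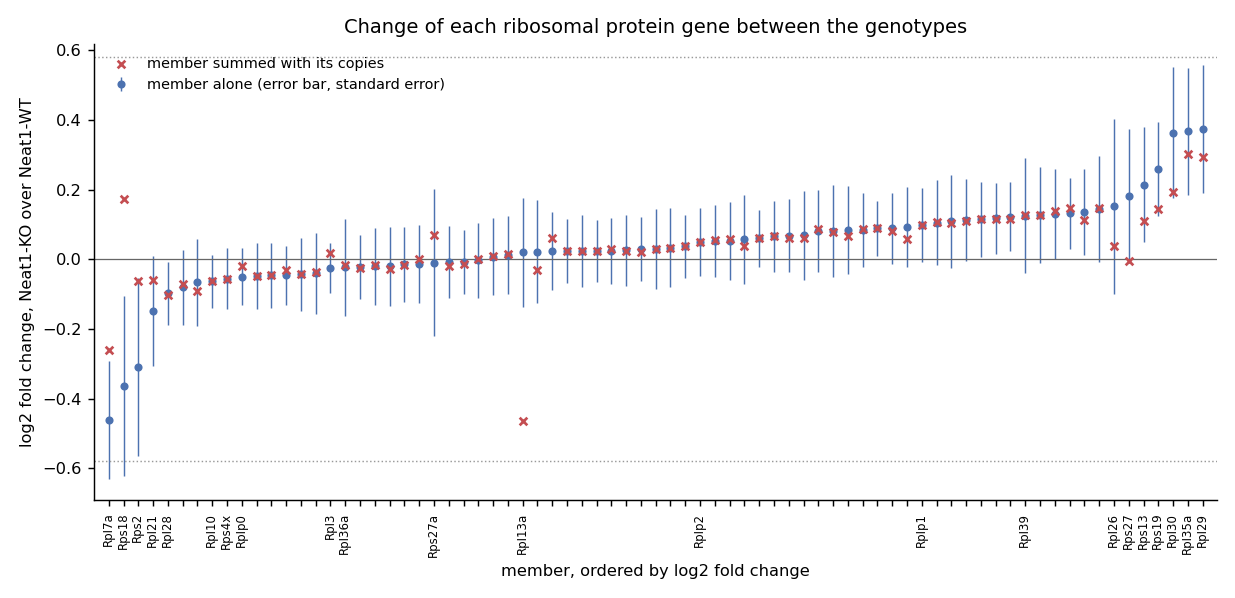
Log2 fold change of Neat1-KO over Neat1-WT (y axis) for the 75 members in order of their fold change (x axis, with names for members described in the text). Points with standard error bars are the members alone, crosses are members summed with their copies, and dotted lines mark the fold used for calls, 0.58 on the log2 scale. All points lie between the dotted lines, and with copies added Rps2, Rpl7a and Rpl29 move towards 0, and Rpl13a moves from 0.02 to -0.46. Rps18 moves from -0.36 to 0.17 where Gm26619 is part of its sum, and the sum without it, not drawn, was at -0.04.

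The same libraries were high or low for most members. The share of all counts held by the 75 members was 1.371%, 1.131%, 1.058% and 1.108% in KO1 to KO4, and 1.167%, 1.230% and 1.015% in WT2 to WT4. KO1 lay above every other library, and the shares of the genotypes overlapped, with a ratio of their means of 1.03. Relative to each gene's mean over the 7 libraries, the median member was at 0.284, -0.022, -0.119 and -0.046 in the Neat1-KO and at 0.020, 0.106 and -0.175 in the Neat1-WT libraries on the log2 scale. Small and large subunit genes followed this closely, at 0.282 and 0.284 in KO1 and at -0.171 and -0.175 in WT4. KO1 was the highest library for 67 members, and WT4 was the lowest for 42. The 8 members that were not highest in KO1 were Rpl13a, Rpl21, Rpl3, Rpl7a, Rplp0, Rps12, Rps27 and Rps27a.

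**Figure D2:**
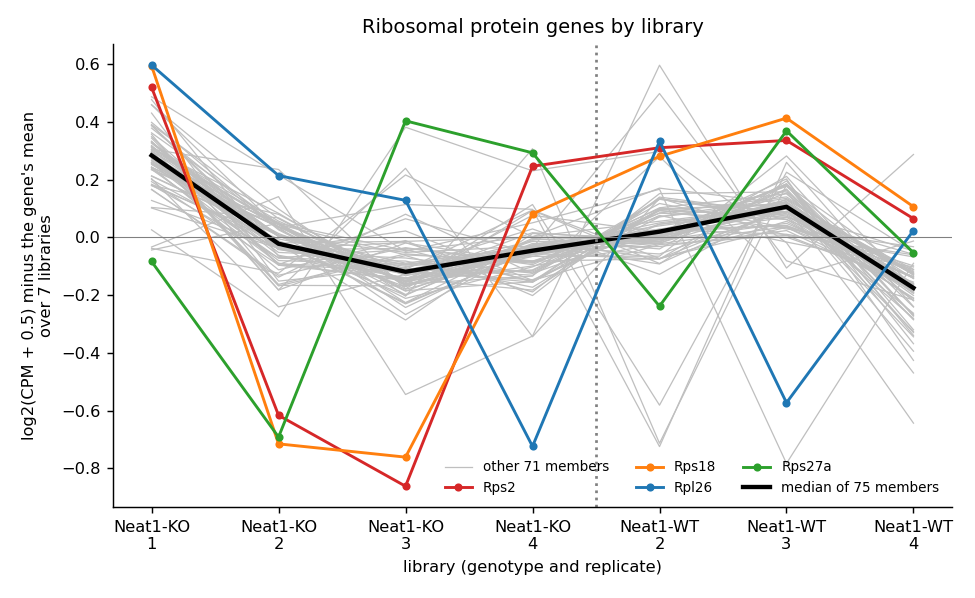
Deviation of log2(CPM + 0.5) from each gene's mean over the 7 libraries (y axis) by library (x axis). Grey lines are single members, the black line is the median of the 75 members, and coloured lines are Rps2, Rps18, Rpl26 and Rps27a. Most members follow the median from 0.284 in KO1 to -0.175 in WT4. The coloured members leave it most in KO2 and KO3 for Rps2, Rps18 and Rps27a and in KO4 and WT3 for Rpl26, with smaller gaps in other libraries.

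Around this common profile most members varied little. The standard deviation of a member around the median profile, over the 7 libraries, had a median of 0.076 on the log2 scale, and it was over 0.2 for 13 members. The steadiest were Rpl15, at 0.027, and Rpl19, at 0.030. Within genotypes, with the profile left in, the median standard deviation of the members was 0.188, beside 0.123 for the 11047 genes in the same range of mean CPM.

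Other gene groups had a library profile of the same kind. In KO1, nuclear genes of oxidative phosphorylation (80 tested) had a median deviation of 0.312, mitochondrial ribosomal protein genes (77) of 0.216 and proteasome genes (37) of 0.179, and in WT4 these groups were at -0.153, -0.112 and -0.135. Translation factors and other TOP mRNAs (24) deviated less than the ribosomal protein genes, at 0.077 and -0.052, as did ribosome biogenesis genes (74), at 0.045 and -0.073. Transcript length moved with the same libraries. Over the other protein-coding genes, 688 genes with a longest transcript under 1000 bases had medians of 0.194 in KO1 and -0.108 in WT4, and 5214 genes of 4000 bases or more had medians of -0.093 and 0.066. The part of transcript length in the profile of the members was not tested.

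**Figure D3:**
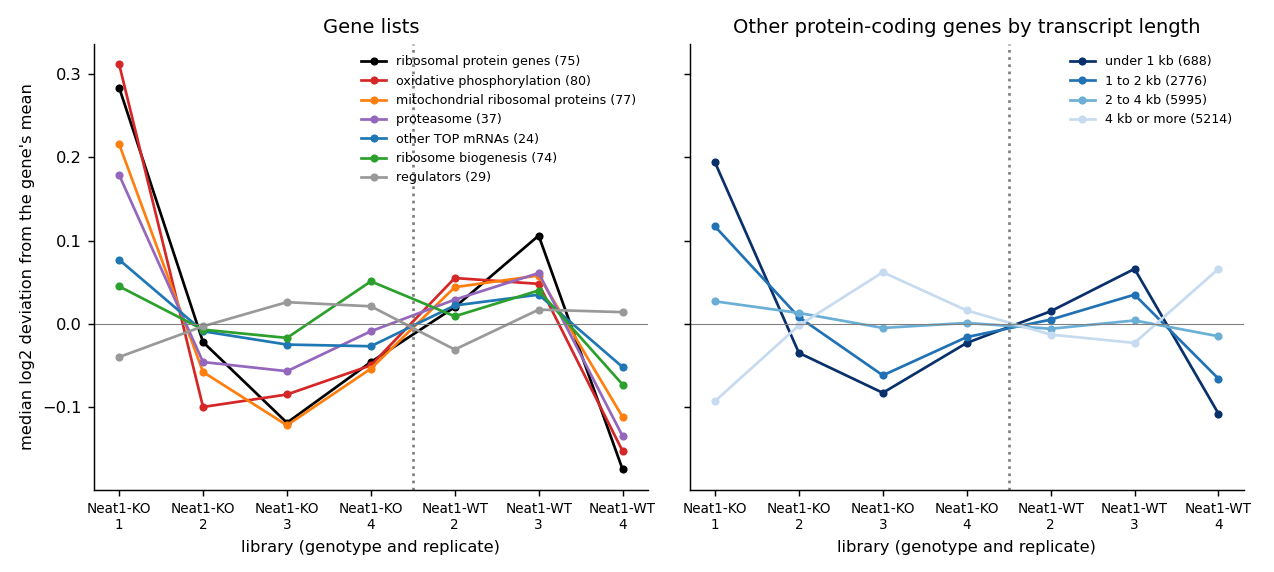
Median deviation from each gene's mean on the log2 scale (y axis) by library (x axis), with the number of genes in parentheses, for gene lists (left) and for other protein-coding genes by transcript length (right). The ribosomal protein, oxidative phosphorylation, mitochondrial ribosomal and proteasome genes are highest in KO1 and low in WT4, as are transcripts under 1 kb, and transcripts of 4 kb or more run the other way.

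Rpl7a, a large subunit protein, was the only member under an unadjusted p of 0.05. It had 59.4, 67.1, 41.5 and 47.9 CPM in KO1 to KO4 and 92.2, 56.4 and 74.3 CPM in WT2 to WT4. The ranges overlapped through WT3, and WT2 was the highest library. The log2 fold change was -0.46 with a standard error of 0.17 (edgeR, unadjusted p = 0.0183, adjusted p = 0.992), and the two-sided exact permutation p was 0.1429, where the smallest that 35 splits allow is 0.0286. Without WT2 the log2 fold change was -0.28. Rpl7a also had the most copies, and with their counts added its log2 fold change was -0.26 (edgeR, unadjusted p = 0.0582). No copy of Rpl7a varied between libraries by the rule given below. Counts added evenly to all libraries shrink a log2 fold change, so this drop alone does not show that reads moved to copies.

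The 5 highest fold changes were those of Rpl29, Rpl35a, Rpl30, Rps19 and Rps13. Rpl35a and Rps19 are best known because their loss-of-function mutations cause Diamond-Blackfan anaemia. Rpl29 had 80.03 to 116.2 CPM in the Neat1-KO libraries and 93.0, 47.9 and 77.8 CPM in WT2, WT3 and WT4, so that WT3 alone lay below all others. Its log2 fold change was 0.38 with a standard error of 0.18 (edgeR, adjusted p = 0.992), which became 0.15 without WT3 and 0.59 without WT2. Rpl35a had 53.8 to 72.4 CPM in Neat1-KO and 31.6, 63.0 and 44.4 CPM in Neat1-WT, with a log2 fold change of 0.37 and a standard error of 0.18 (edgeR, adjusted p = 0.992). WT2 was the lowest library for Rpl35a, and also for Rpl30, at 42.2 CPM, and Rps13, at 48.8 CPM. Rpl30 and Rps13 had log2 fold changes of 0.36 and 0.21, and Rps19 had 0.26 with 95.8 to 134.1 CPM in Neat1-KO and 78.2 to 116.5 CPM in Neat1-WT. Single libraries set the size of these values. Without WT2 the log2 fold changes of Rpl35a, Rpl30 and Rps13 were 0.15, 0.15 and 0.02, and without WT3 they were 0.65, 0.58 and 0.41. That of Rps19 was 0.11 without WT4 and 0.39 without WT3. None of these 5 genes passed the test, with all libraries or with 1 left out.

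The 5 lowest fold changes were those of Rpl7a, Rps18, Rps2, Rpl21 and Rpl28. Rpl21 had 25.3 to 34.6 CPM in Neat1-KO and 42.6, 28.3 and 25.8 CPM in WT2, WT3 and WT4, with a log2 fold change of -0.15 that became 0.11 without WT2. Rpl28 had 153.4 CPM in KO1 and 120.4 to 125.5 CPM in KO2 to KO4, beside 129.8 to 147.0 CPM in Neat1-WT, with a log2 fold change of -0.10. Neither passed the test (edgeR, adjusted p = 0.992 for both).

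Rps2, which lines the channel where mRNA enters the small subunit, had the largest ratio of highest to lowest library, 2.61. In CPM of all counts it was at 264.9, 122.2, 102.8 and 222.9 in KO1 to KO4 and at 229.1, 236.4 and 193.6 in WT2 to WT4. KO2 and KO3 were low, while KO1 and KO4 lay with the Neat1-WT libraries. Its copy Rps2-ps10, a transcribed processed pseudogene at chr18:61259008-61259972, was at 75.84 and 57.01 CPM in KO2 and KO3 and at 0.22 to 0.66 CPM in the other 5 libraries. Rps2 and this copy together came to 198.0 and 159.8 CPM in KO2 and KO3, beside 194.1 to 265.6 CPM elsewhere. The log2 fold change of Rps2 was -0.31 with a standard error of 0.26 (edgeR, adjusted p = 0.992), and it was -0.06 when all its copies were added. Without KO1 it was -0.57, and without KO2 or KO3 it was -0.16 or -0.12.

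Rps18, a protein of the head of the small subunit, was low in the same libraries. KO2 and KO3 had 62.4 and 60.3 CPM, KO1 and KO4 152.9 and 108.9 CPM, and WT2, WT3 and WT4 123.0, 136.7 and 109.1 CPM. Of its copies, Gm10260 was at 34.84 and 34.09 CPM and Gm11361 at 16.22 and 14.39 CPM in KO2 and KO3, against at most 1.42 CPM for either in any other library. The sum of Rps18 and these copies was 113.5 and 108.8 CPM there, within the range of 111.2 to 154.6 CPM elsewhere or just under it. A further copy, the lincRNA Gm26619, was at 39.91 and 38.43 CPM in these libraries, and 96.4% of the exon bases of Gm10260 lie in Gm26619 on the other strand, so the counts of this locus may not be separate. The log2 fold change of Rps18 was -0.36 alone with a standard error of 0.26 (edgeR, adjusted p = 0.992). With all copies added it was 0.17, and with Gm26619 left out of the sum it was -0.04. For Rps18 alone it was -0.69 without KO1 and -0.20 or -0.19 without KO2 or KO3.

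Rpl26, near the exit of the tunnel through which the new peptide leaves the large subunit, was low in other libraries. It had 101.7 CPM in KO4 and 112.6 CPM in WT3, 1 library of each genotype, and 168.5 to 250.5 CPM in the remaining 5. The copy Gm15772, printed above, was at 105.49 and 120.51 CPM in these 2 libraries and at 5.26 to 8.54 CPM in the others. Added together, Rpl26 and Gm15772 were at 259.0, 201.0, 189.7 and 207.2 CPM in the Neat1-KO and at 214.5, 233.2 and 173.8 CPM in the Neat1-WT libraries, so that KO4 and WT3 lay within the range of the others. The standard deviation of Rpl26 around the median profile was 0.460 alone, the highest of the members, and 0.050 with all its copies added. Its log2 fold change was 0.15 alone with a standard error of 0.25 (edgeR, adjusted p = 0.992) and 0.04 with its copies. Its direction depended on single libraries, with -0.05 without KO1, -0.06 without WT3 and 0.37 without WT2.

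Rps27a encodes ubiquitin fused to a small subunit protein and is thus a source of free ubiquitin as well. It was at 116.2, 77.3, 165.3 and 153.5 CPM in KO1 to KO4 and at 104.2, 161.3 and 118.9 CPM in WT2 to WT4. Rps27a-ps2 ran the other way, from 100.8 and 83.14 CPM in KO1 and KO2 to 12.11 and 22.01 CPM in KO3 and KO4, with 32.67 to 48.09 CPM in Neat1-WT. A second copy, Gm8430, was at 2.1 to 21.42 CPM with its highest value in WT2. With both copies, Rps27a was at 158.1 to 224.8 CPM, and its standard deviation around the median profile went from 0.432 alone to 0.065 with all copies. The log2 fold change was -0.01 alone and 0.07 with copies, and neither passed the test.

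**Figure D4:**
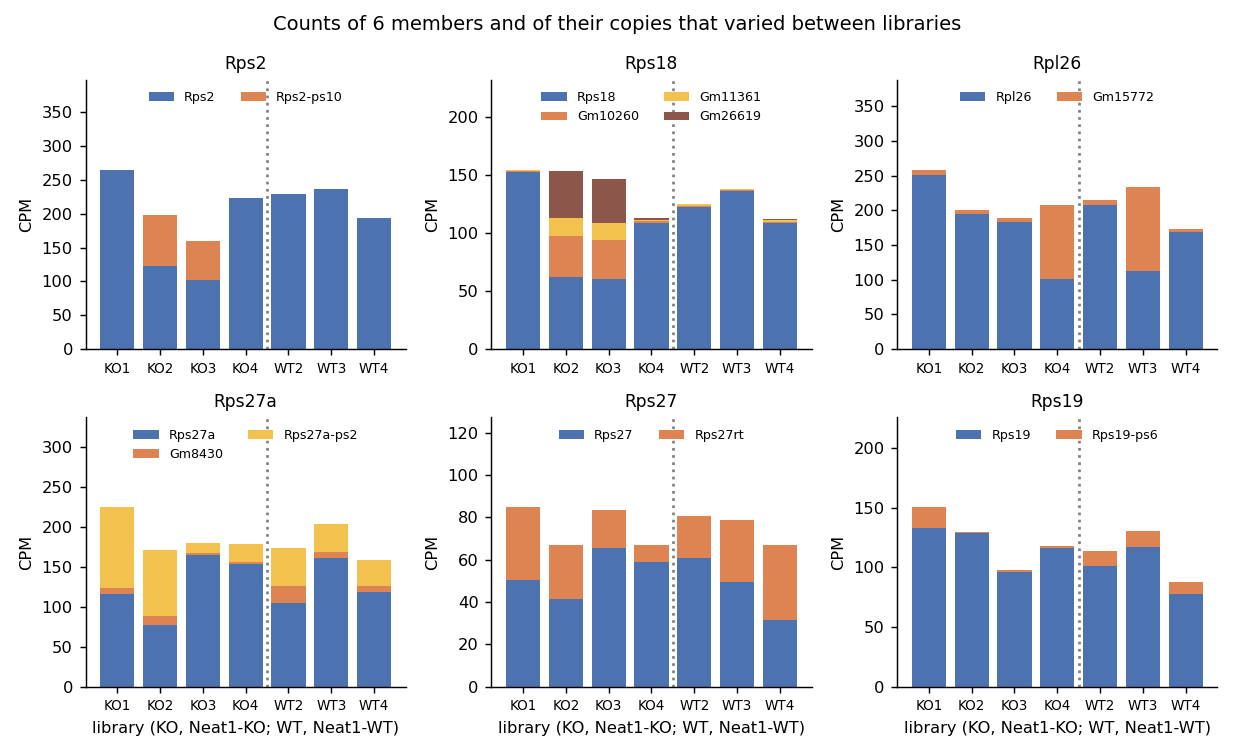
CPM of all counts (y axis, stacked from 0) by library (x axis, KO for Neat1-KO and WT for Neat1-WT) for 6 members (blue) and their copies that varied between libraries (other colours). Rps2 and Rps18 are low and their copies high in KO2 and KO3, Rpl26 is low and Gm15772 high in KO4 and WT3, and the stacks differ less between libraries than the blue bars for Rps2, Rps18, Rpl26, Rps27a and Rps27. The Rps18 stack includes Gm26619, whose counts may not be separate from those of Gm10260.

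By a fixed rule, a ratio of at least 4 between the highest and the lowest library with 0.5 CPM added to each and at least 5 CPM in the highest, 14 copies varied between libraries, those named above included. They were Gm11478 of Rpl13a, Gm15772 of Rpl26, Gm12191 of Rpl30, Gm10076 of Rpl41, Gm8730 of Rplp0, Gm10260, Gm11361 and Gm26619 of Rps18, Rps19-ps6 of Rps19, Rps2-ps10 of Rps2, Rps25-ps1 of Rps25, Rps27rt of Rps27, and Gm8430 and Rps27a-ps2 of Rps27a. Rps27rt has a transcript identical to that of Rps27 over all 341 aligned bases and was at 8.11 to 35.25 CPM. Rps27, a small subunit protein, was at 31.5 to 65.4 CPM, and the pair together at 66.8 to 84.9 CPM. Gm12191 was at 25.59 CPM in WT2, the library in which Rpl30 was lowest, and at 2.0 to 9.97 CPM in the others.

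The copies Gm11478 and Rps19-ps6 were high in KO1 and in every Neat1-WT library and low in KO2 to KO4. Rps19-ps6 was at 17.7 CPM in KO1, 1.22 in KO2, 1.63 in KO3 and 1 in KO4, and at 12.7, 13.7 and 10.6 CPM in WT2 to WT4. Gm11478 was at 9.61, 0.65, 0.79 and 1.11 CPM and at 7.22, 8.72 and 6.93 CPM. Its member Rpl13a, known for silencing inflammatory mRNAs after release from the ribosome, did not mirror it, with 6.83 to 10.43 CPM and a log2 fold change of 0.02. Adding the copies gave Rpl13a a log2 fold change of -0.46 (edgeR, unadjusted p = 0.0432, adjusted p = 0.992), the smallest unadjusted p of any member in that fit. Of the exon bases of Rpl13a, 35.4% are shared with 3 overlapping genes on the same strand, Gm45713 among them.

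Gm8730 was at 17.4 to 21.9 CPM in KO1, KO2 and WT4, and at 0.84 to 1.78 CPM in the other 4 libraries. Rplp0 itself was at 238.6, 216.5 and 200.5 CPM in the former 3 and at 207.6 to 243.1 CPM in the latter, so the ranges overlapped. A copy of Rpl3, Rpl3-ps1 on the X chromosome, did not reach the ratio of 4 and was singled out after its values were seen. It was at 83.61 CPM in KO1 and at 30.07 to 32.38 CPM in the others, and Rpl3 was 1 of the 8 members that were not highest in that library, at 421.0 CPM.

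Adding copies lowered the number of members that stood apart from the profile. Of 13 members with a standard deviation over 0.2 around the median profile, Rps2 went from 0.454 to 0.135, Rps27 from 0.358 to 0.149, Rpl30 from 0.347 to 0.121 and Rps18 from 0.456 to 0.170, or to 0.068 with Gm26619 left out of the sum, and 4 members stayed over 0.2. These were Rpl29, at 0.348, Rpl35a, at 0.272, Rpl7a, at 0.257, and Rpl13a, which went from 0.216 to 0.354. The sum of Rpl29 includes Uimc1, in which 86.1% of the exon bases of its copy Gm6344 lie on the other strand. With Uimc1 left out Rpl29 was at 0.347. Steady counts added to a member also lower its standard deviation on the log2 scale. The drops alone therefore do not show that reads moved to copies. Rpl17 (0.208 to 0.098), Rpl21 (0.231 to 0.157) and Rps13 (0.270 to 0.195) fell without any copy that varied by the rule above. The median over all members was 0.076 before and 0.072 after. Whether the reads at a copy came from its own RNA or from that of the member was not tested.

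**Figure D5:**
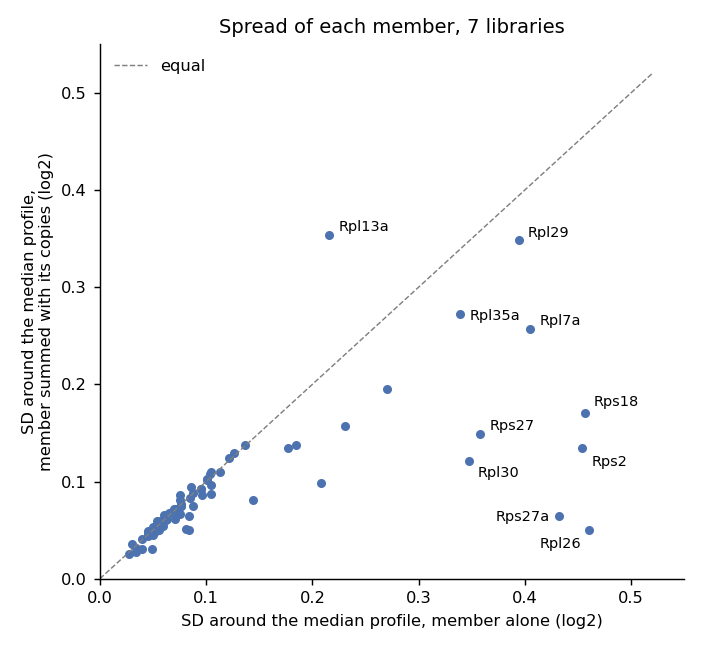
Standard deviation around the median profile over 7 libraries on the log2 scale for each of the 75 members, counted alone (x axis) and summed with its copies (y axis). The dashed line marks equal values. Rpl26, Rps27a, Rps2 and Rps18 lie far below the line, Rpl29, Rpl35a and Rpl7a closer to it, and Rpl13a above it.

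The steadiest members across libraries were Rpl3, with a ratio of highest to lowest library of 1.18, and Rpl10 and Rplp0, each with 1.20. In all, 47 members had a ratio under 1.5 and 9 a ratio over 2. These 9 were Rps2, Rps18 (2.57), Rpl26 (2.50), Rpl29 (2.43), Rpl35a (2.29), Rpl30 (2.27), Rpl7a (2.22), Rps27a (2.14) and Rps27 (2.05).

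Levels were compared between members per kb of the longest protein-coding transcript. They ran from 8.5 to 617.2 CPM per kb with a median of 149. Rplp1, a stalk protein, was highest at 617.2 ± 78.0 CPM per kb (SD, n = 7), followed by Rpl41, which encodes a very short basic peptide, at 399.8 ± 62.3, and Rps15 at 377.1 ± 46.0. The means of Rpl41, Rps15 and the next, Rpl13, at 370.5 ± 44.3, lay within their SD of each other. That spread includes the library profile that the members share. Within libraries, Rpl41 was above Rps15 in all but KO3, where they were at 324.6 and 334.6 CPM per kb. With the merged exons of a gene as its length, Rplp1 and Rps15 were first and second, and Rpl41 eighth. The lowest were Rpl13a at 8.5 ± 1.2, Rpl21 at 16.4 ± 3.3 and Rps27l, a p53-induced paralog of Rps27, at 23.5 ± 3.8. These low levels hold only for uniquely placed reads. The number of copies listed was 85 for Rpl21, 4 for Rpl13a and 6 for Rps27l. Rpl13a also shares 35.4% of its exon bases with other genes.

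The stalk of the large subunit, built from Rplp0 and pairs of Rplp1 and Rplp2, recruits the elongation factors. In the 4 Neat1-KO libraries Rplp0 was at 218 ± 15.9 CPM (SD), and in the 3 Neat1-WT libraries at 225 ± 20.8 CPM. Rplp1 was at 317 ± 46.5 and 296 ± 30.4 CPM, and Rplp2 at 97.9 ± 12.1 and 94.5 ± 6.2 CPM. Their log2 fold changes were -0.05, 0.10 and 0.05, and none passed the test.

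The 4 members on the X chromosome were Rpl10, which joins the large subunit late and completes its catalytic centre, Rps4x, Rpl36a and Rpl39. Rpl10 was at 167 ± 12.3 CPM in Neat1-KO and 175 ± 9.97 CPM in Neat1-WT, and Rps4x at 205 ± 19.4 and 212 ± 18.5 CPM. Rpl36a was at 58.8 ± 11.0 and 59.7 ± 10.3 CPM, and Rpl39 at 47.7 ± 10.4 and 43.6 ± 9.39 CPM. With log2 fold changes from -0.06 to 0.13, none of the 4 passed the test.

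5 genes with a fitting symbol were not members. Rpl10l had no read and Rpl39l 1 count in 1 library. Rpl3l was at 0.186 to 0.656 CPM. Rpl24 was at 0.281 to 0.730 CPM, and 47.0% of its exon bases are shared with Gm28037. Rps10 was at 0.672 to 2.068 CPM, and 28.7% of its exon bases are shared with other genes, most with RPS10-NUDT3. Both Rpl24 and Rps10 encode standard ribosomal proteins. A read that overlaps 2 genes is usually assigned to neither, and the part of this in their low counts was not tested. Among the members, 8 share over 20% of their exon bases with another gene, and for Rpl35 (66.2%) and Rpl23a (62.3%) most of this lies on the other strand.

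Related genes showed no call either. A list of ribosomal protein genes missed by the symbol rule and of close paralogs had 9 tested genes, 4 higher and 5 lower, with none under an unadjusted p of 0.05. Of these, Rps27l is also 1 of the 75 members and Rpl3l fits the symbol rule. Fau, which encodes a small subunit protein fused to a ubiquitin-like protein, had a mean of 159.3 ± 23.5 CPM (SD) over the 4 Neat1-KO and 135.2 ± 14.7 CPM over the 3 Neat1-WT libraries, with a log2 fold change of 0.24 (edgeR, adjusted p = 0.992). Of the 24 translation factors and other TOP mRNAs, 14 were higher and 10 lower with a median of 0.02, and the smallest unadjusted p was that of Nap1l1, a histone chaperone (edgeR, unadjusted p = 0.0961).

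Of 74 ribosome biogenesis genes, 51 were higher and 23 lower, with a median log2 fold change of 0.04 and 0 called. At an unadjusted p under 0.05, 2 were higher and 1 lower, beside 2.24% and 2.4% of all genes tested. The lower one was Rpf2, an assembly factor of the large subunit, at 12.1 ± 1.28 CPM in Neat1-KO and 15.1 ± 1.15 CPM in Neat1-WT with a log2 fold change of -0.32 (edgeR, unadjusted p = 0.0199, adjusted p = 0.992). The higher ones were Rrp12, an export factor, at 0.18 (edgeR, unadjusted p = 0.0403), and Rrp1b at 0.28 (unadjusted p = 0.0498). Of 29 regulators of ribosomal protein synthesis and of the ribosomal stress response, 12 were higher and 17 lower, with 0 called. Cdkn1a, a p53 target that halts the cell cycle, was at 19.2 ± 3.54 CPM in Neat1-KO and 25.5 ± 2.37 CPM in Neat1-WT, with a log2 fold change of -0.41 (edgeR, unadjusted p = 0.0101, adjusted p = 0.962). Zfp598, which marks collided ribosomes, had a log2 fold change of 0.21 (edgeR, unadjusted p = 0.0265, adjusted p = 0.992).

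Mitochondrial ribosomal protein genes were 38 higher and 39 lower, with a median log2 fold change of -0.004. Oxidative phosphorylation genes were 58 higher and 22 lower with a median of 0.04, and proteasome genes 27 higher and 10 lower with a median of 0.04. None of the genes in these 3 lists was under an unadjusted p of 0.05 in either direction. Their smallest p-values were those of Mrps26 (edgeR, unadjusted p = 0.0698), Ndufa11 (unadjusted p = 0.139) and Psmd4 (unadjusted p = 0.179).

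Markers of some cell types had their highest or lowest value in KO1 or WT4, and those of others did not. The summed meningeal markers Col1a1, Col1a2, Dcn, Lum and Ranbp3l were at 69.27 to 186.71 CPM in Neat1-KO and 62.88 to 188.45 CPM in Neat1-WT, lowest in WT2 and KO1. The 4 microglial markers were at 116.27 CPM in KO1 while KO2 to KO4 had 170.75 to 186.39 CPM and the Neat1-WT libraries 118.94 to 180.66 CPM. The 4 oligodendrocyte markers were highest in WT4, at 36733.17 CPM, where 42 members were lowest. The 4 skeletal muscle markers Acta1, Ckm, Mylpf and Tnnt3 were at 12.29 CPM in WT4 and at 2.15 to 2.86 CPM in the other libraries. The 4 astrocyte markers were lowest in KO1, at 4376.64 CPM, and highest in WT4, at 5886.23 CPM. In contrast, the 4 neuronal markers were highest in WT2, at 3433.41 CPM, and lowest in KO2, at 2956.84 CPM. The 4 motor neuron markers had their extremes in the same libraries, at 217.62 and 125.23 CPM. The 5 blood markers were highest in WT3, at 13.63 CPM, and lowest in KO3, at 5.82 CPM. No marker of the lists was at 0 in all libraries. The part of tissue composition in the members' profile was not tested.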

How the data were processed

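Libraries were grouped by the genotype in the sample labels. Per the labels and the study's methods, the authors made directional poly(A) libraries, trimmed paired reads with Trimmomatic 0.38, aligned them with HISAT2 2.1.0 and counted uniquely mapped reads with featureCounts 1.6.3 on mm10. They deposited raw counts per Ensembl gene without normalization. The strand setting and the annotation release of the counting are not given in the sources used here. Since only uniquely mapped reads were counted, reads that fit a gene and its copy equally well are missing from both. Gene names came from GENCODE M21.

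Counts were filtered with filterByExpr, scaled with TMM factors and compared with edgeR 4.0.16 (R 4.3.3). Its quasi-likelihood test was used with Benjamini-Hochberg adjustment over all 18449 genes. The tests were also run on simulated counts with known changes, drawn with the means, library sizes and dispersions of these data. CPM are TMM-scaled, except beside copies, where counts were divided by the library total. TMM factors were 0.991 to 1.008. Counts per member and library ran from 135 to 11924. No 2 libraries agreed within sampling noise (chi-square per degree of freedom of at least 6.51). The study's methods give 4 and 3 mice, so each library is taken as 1 mouse, and p-values measure the spread between these samples. Copies were found with BLAST 2.17.0. The minimum of 150 aligned bases was set after seeing the data.

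Members and lists were chosen with earlier results of these data known. Named were Rps2, Rpl26 and Rps18, members at an unadjusted p under 0.05, the 5 highest and lowest fold changes, the extremes of library ratio and of level per kb, X-linked and stalk genes, varying copies, and the genes of each related list with the smallest p. Alternatives were other size factors, no filter, DESeq2 1.42.0, limma-voom (limma 3.58.1), leaving out each library, a replicate block, an Xist term, summing of copies and a stricter threshold. Figures used matplotlib 3.10.9, with Python 3.11.15 and pandas 2.3.3.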

Additional observations from a re-analysis of the deposited data

Results flagged for a closer look

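Within the 4 Neat1-KO libraries, 12 values were looked at for a single library far from the other 3, and 2 were found, where chance alone gives about 1 in 20. For Rpl28, the gap from KO1, at 153.4 CPM, to the nearest library was 0.845 of the whole range, and for Rpl35a, with 72.4 CPM in the same library, it was 0.833, both above Dixon's critical value. KO1 was also the highest library for 67 of the 75 members.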

How the results depend on the processing

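No member was called under any alternative run, but 6 members passed an adjusted p of 0.1, all under the minimum fold change, when the filter on low counts was dropped, the smallest being that of Rpl7a at -0.47 (edgeR, adjusted p = 0.00038). Without that filter 3 members were lower and 5 higher at an unadjusted p under 0.05, against 2.83% and 2.36% of all genes, and 124 of all genes were called. DESeq2 gave 0 members lower and 27 genes called, and limma-voom 2 members higher. Leaving out 1 library at a time gave 0 to 5 members lower, 0 to 4 higher and 3 to 31 genes called. The highest counts were 5 members lower without KO1, against 3.37% of all genes, where 31 genes were called, and 4 members higher without WT3, against 1.98%, where 3 genes were called. Without KO3 or WT2 no member was lower and 3 and 1 were higher, against 3.55% and 1.45%, and without WT4 11 genes were called. The replicate numbers were not taken as pairs, because same-numbered libraries correlated at -0.350, -0.289 and -0.029. With the replicate block, which leaves out KO1, 3 members were lower and 2 higher, against 2.28% and 2.73% of all genes, 38 genes were called, the median over the members was -0.044, and Rpl7a was at -0.51 (edgeR, adjusted p = 0.0773). Rpl26 turned from 0.15 to -0.059 with the block and to -0.382 with Xist, nearly absent in all libraries, as a covariate, and was at -0.061 to 0.372 with 1 library left out. Rpl21 was at -0.287 to 0.106 with 1 library left out, and Rps18 at 0.173 with copies added. At 95% identity 586 copies were left. The median over the members was also below 0 with the Xist covariate, -0.078, and without KO1 or WT4, and above 0 under the remaining alternatives, while the 5 highest and 5 lowest members, Rps18 and Rpl21 apart, kept their direction under all alternatives run. Rpl10l and Rpl39l, with at most 1 read, were not detectable at this depth. What moved these values was not tested.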
